A study of Homo sapiens with 5 samples.

Results

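In HEK293T cells lacking CFIm68, 137 genes used the downstream one of their 2 main poly(A) sites more than control cells did. The genes were chosen from these values. For each gene the pair of poly(A) sites with the most reads over all libraries was taken, and the share of the pair's reads at the upstream site is called the proximal share. A gene was included where its proximal share was 15 or more percentage points below the control in both CFIm68 knockout lines, with 30 or more control reads over both sites. Of 5869 gene pairs measured, 5271 had that many control reads, and 137 (2.60%) met the rule. The opposite move, 15 or more points above the control in both CFIm68 knockout lines, was seen for 1191 pairs. A pair could meet the rule only where the control share was itself 15% or more, which left 3762 pairs, called the eligible pairs below.

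Cleavage factor Im helps to choose where an mRNA ends. Its small subunit CFIm25 (gene NUDT21) binds UGUA in the RNA, and either CFIm68 (gene CPSF6) or CFIm59 (gene CPSF7) completes it. Loss of CFIm68 or CFIm25 is known for moving many mRNAs towards upstream sites and shorter 3′ ends, and the genes described here are ones whose main pair moved the other way.

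The groups were CFIm68 knockout cells (2 cell lines), CFIm59 knockout cells (2 cell lines) and unmodified HEK293T control cells (1 library). HEK293T is a transformed human embryonic kidney line, the knockouts were made in it with CRISPR/Cas9, and cells of every group grew in DMEM with 5% serum. With 1 control library, a control value carries no replicate spread, and a difference shared by both lines of a knockout cannot be told apart from a deviation of that 1 control culture. The sources used here do not say whether a line was 1 clone.

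The CFIm68 knockout libraries held 2727728 and 2078376 reads, the CFIm59 knockout libraries 1673687 and 2585923, and the control 2924266. CPSF6 had 47.6 and 45.4 CPM (reads scaled to an equal library size) in the CFIm68 knockout lines, 140 and 141 CPM in the CFIm59 knockout lines and 119 CPM in the control. CPSF7 had 126 and 203 CPM in the CFIm68 knockout lines, 67.98 and 55.1 CPM in the CFIm59 knockout lines and 59.5 CPM in the control. Reads at 3′ ends can come from an mRNA with an edited exon, so the level of CPSF7 does not check the CFIm59 knockout. Of 11 genes that mark HEK293T cells, 8 had 10 or more reads in every library, and IRS4 had 0 reads in both CFIm59 knockout lines. Of 12 markers of other cell types, 5 had 2 or fewer reads in every library, and 2 (COL1A1 and CDX2) had 10 or more in every library. The liver marker ALB had at most 1 read in any knockout library and 70 in the control. APOA1, the other liver marker, had 0 reads in both CFIm68 knockout lines, 1 and 9 in the CFIm59 knockout lines and 1 in the control. The part of such differences in the results below was not tested.

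The median proximal share of the 137 genes was 31.6% and 33.3% in the CFIm68 knockout lines, 55.0% and 54.2% in the CFIm59 knockout lines and 58.97% in the control. Over the eligible pairs it was 64.6% and 63.3% in the CFIm68 knockout lines, 44.0% and 44.6% in the CFIm59 knockout lines and 50.7% in the control. Since the control and CFIm68 values chose the genes, that part of the contrast is a description and no test of it is given. The mean of the CFIm68 knockout lines lay 15.6 to 69.3 points below the control, with a median of 22.9 points. The smaller of each gene's 2 differences was 40 points or more for 10 genes, and 68 genes stayed under 20 points. The CFIm68 knockout lines differed by less than 10 points for 111 genes and by 29.3 points at most. The rule asked both lines to be low, which favours such agreement, so it is no measure of how well the lines repeat. In 85 genes the upstream site was the main one of the pair in the control, and in 53 of these both CFIm68 knockout lines used the downstream site more. The nearest genes inside the 15-point limit were OGFOD2 (15.03 points, by its smaller difference), ST20 (15.05) and BCRP7 (15.09), and the nearest outside it were SMU1 (14.96), MRPS36 (14.90) and PHF20 (14.90), so the limit divides a continuous range. Depth differed between genes: 79 had 60 or more control reads of the pair and 44 had 100 or more. For 11 genes a site of the pair was also listed under another gene, and the reads of AMZ2 and AMZ2P1, GOLGA6L4 and GOLGA6L9, and BCRP2 and BCRP7 are uncertain because near-identical copies exist.

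**Figure D1:**
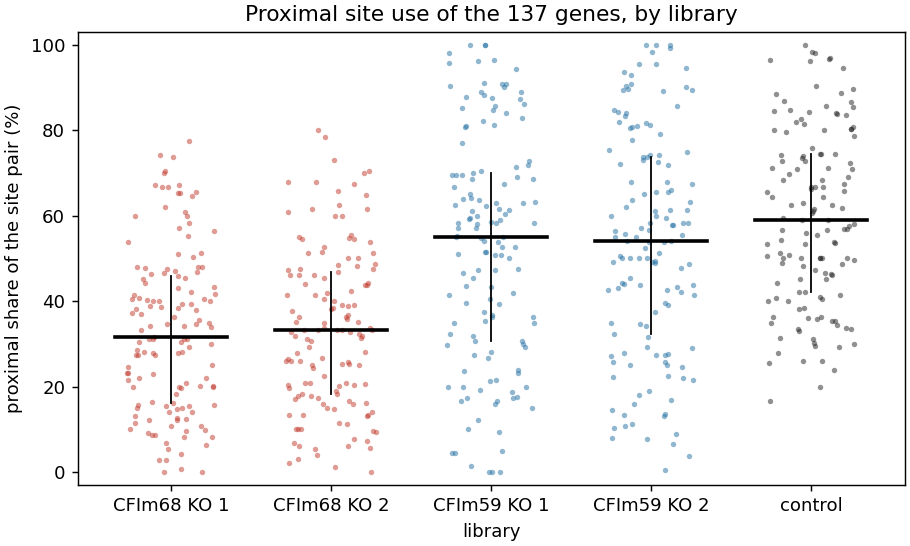
Proximal share of the site pair (%) for the 137 genes in each library, with CFIm68 knockout lines (red), CFIm59 knockout lines (blue) and the control (black). Each point is 1 gene, horizontal bars are medians (31.6% and 33.3% in CFIm68 knockout lines, 58.97% in the control) and vertical lines span the quartiles. The genes were chosen by the difference between the red and black columns.

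MAF, a leucine zipper transcription factor, used a site in an intron (hg19 position 79630369, minus strand of chromosome 16) in the control and a last exon site 2137 nt downstream (position 79628232) in the CFIm68 knockout lines. The intron site's share of the pair was 31.1% and 31.9% in the CFIm68 knockout lines, 57.1% and 75% in the CFIm59 knockout lines and 79.7% in the control (95% Wilson interval 69.2% to 87.3%). The CFIm59 knockout values rest on 14 and 16 reads, and their difference from the control did not pass the test (adjusted p = 0.526, quasi-likelihood test in edgeR, adjusted by Benjamini-Hochberg). The downstream site had 25.2 and 20.7 CPM in the CFIm68 knockout lines, 3.58 and 1.65 CPM in the CFIm59 knockout lines and 5.61 CPM in the control. The upstream site had 11.4 and 9.70 CPM in the CFIm68 knockout lines, 4.77 and 4.94 CPM in the CFIm59 knockout lines and 22.1 CPM in the control. Relative to the control, the sites thus differed in opposite directions without CFIm68, and both were lower without CFIm59. Summed over every listed site, MAF had 54.5 and 48.5 CPM in the CFIm68 knockout lines, 14.9 and 12.3 CPM in the CFIm59 knockout lines and 41.9 CPM in the control. It fell in CFIm59 knockout cells against the control (log2 change -1.63, SE 0.32, adjusted p = 0.000209), and did not pass the test in CFIm68 knockout cells (log2 change 0.30, adjusted p = 0.650).

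**Figure D2:**
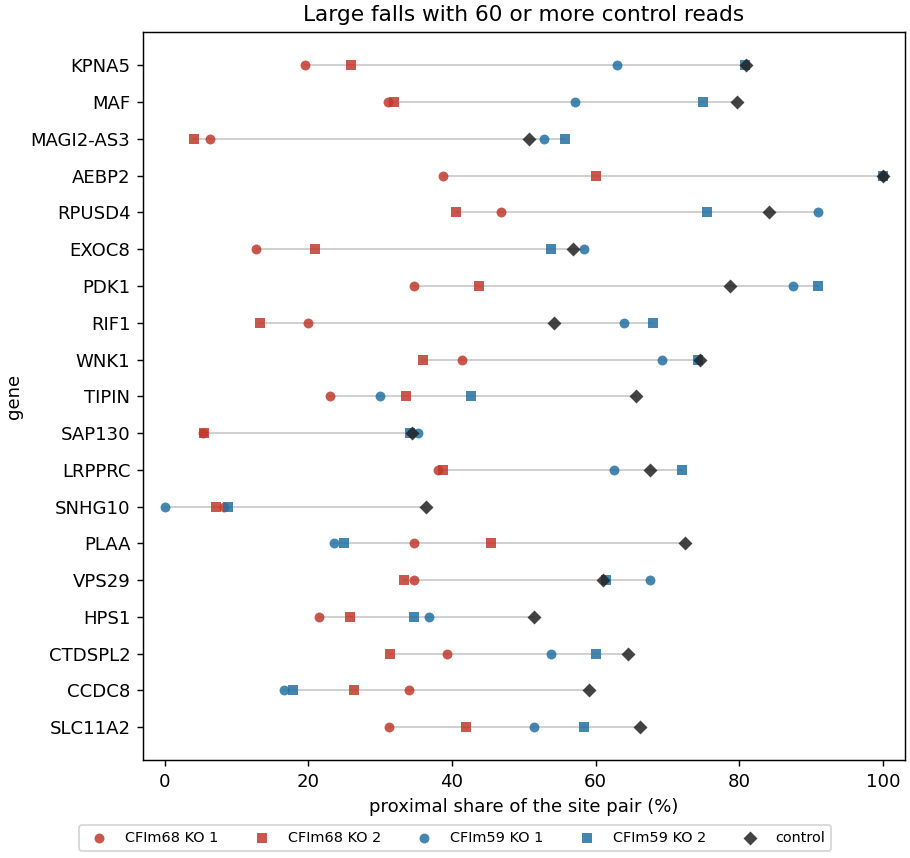
Proximal share of the site pair (%) for genes among the 20 with the largest smaller difference and 60 or more control reads, ordered by that difference from KPNA5 down. Circles and squares are lines 1 and 2 of the CFIm68 knockout (red) and the CFIm59 knockout (blue), and the diamond is the control. For EXOC8, SAP130 and WNK1 the blue points lie near the control, while for PLAA, CCDC8 and SNHG10 they lie far below it.

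For 7 genes the downstream site held 3 or fewer reads in the control (among them LEPR, RFX7, AEBP2, TRMT13, FBXO45 and HOXD10, which were named after their values were seen). In AEBP2, an accessory subunit of the Polycomb repressive complex PRC2, the downstream site is classed as intron and lies 33043 nt past the last exon site. It held 38 and 24 reads in the CFIm68 knockout lines and 0 in both CFIm59 knockout lines and the control. The control's 0 of 72 pair reads allows a downstream share of up to 4.17%, and the site was at least 10.6-fold higher in the CFIm68 knockout lines, taking a floor of 3 reads per library in the control and after scaling to CPM. Such intervals and floors cover counting error only, since the reads carried no molecular identifiers. LEPR, the leptin receptor, had proximal shares of 47.1% and 46.2% in the CFIm68 knockout lines, 100% and 98.5% in the CFIm59 knockout lines and 96.9% in the control, over sites 897 nt apart. HOXD10, a homeobox gene, had 73.7% and 78.4% in the CFIm68 knockout lines, 96.3% and 100% in the CFIm59 knockout lines and 96.2% in the control. PAPD5, a noncanonical poly(A) polymerase, had the largest mean difference of the 137 genes. Its share was 18.3% and 22.5% in the CFIm68 knockout lines, 100% in both CFIm59 knockout lines and 89.7% in the control.

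KPNA5, an importin alpha that carries proteins into the nucleus, had 19.6% and 25.9% in the CFIm68 knockout lines, 63.0% and 80.9% in the CFIm59 knockout lines and 80.9% in the control. SAP130, a subunit of the Sin3 histone deacetylase complex, had 5.38% and 5.43% at a site in an intron in the CFIm68 knockout lines, 35.3% and 34.2% in the CFIm59 knockout lines and 34.4% in the control. PHC3, a subunit of the Polycomb complex PRC1, had no read at its upstream site in either CFIm68 knockout line, against 8 and 21 reads in the CFIm59 knockout lines and 9 in the control. Its downstream site held 20 and 13 reads in the CFIm68 knockout lines, 15 and 27 in the CFIm59 knockout lines and 36 in the control. The pair of its outermost sites went the other way. That pair had 28.6% and 31.6% in the CFIm68 knockout lines, 6.25% and 15.6% in the CFIm59 knockout lines and 12.2% in the control. RIF1, which acts in replication timing and double-strand break repair, had 20% and 13.3% in the CFIm68 knockout lines, 64% and 68.03% in the CFIm59 knockout lines and 54.3% in the control. In the main pairs of KPNA5, SAP130, PHC3 and RIF1 both CFIm68 knockout lines lay below the other libraries. TIPIN, which protects stalled replication forks together with TIMELESS, was lower in both knockouts, with 23.1% and 33.7% in the CFIm68 knockout lines, 30% and 42.7% in the CFIm59 knockout lines and 65.6% in the control. There the knockouts overlapped.

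PDK1, which phosphorylates and switches off pyruvate dehydrogenase, had 34.8% and 43.8% in the CFIm68 knockout lines, 87.5% and 90.9% in the CFIm59 knockout lines and 78.7% in the control. RPUSD4, a mitochondrial RNA pseudouridine synthase, had 46.9% and 40.6% in the CFIm68 knockout lines, 90.9% and 75.5% in the CFIm59 knockout lines and 84.1% in the control. TIMM50, of the machinery that imports proteins across the inner mitochondrial membrane, had 66.8% and 67.6% in the CFIm68 knockout lines, 87.3% and 90.2% in the CFIm59 knockout lines and 83.8% in the control. In each of these mitochondrial genes both CFIm68 knockout lines lay below the other libraries. EXOC8, of the exocyst that tethers secretory vesicles, had 12.7% and 20.9% in the CFIm68 knockout lines, 58.3% and 53.8% in the CFIm59 knockout lines and 56.8% in the control. The pair of its outermost sites went the other way. That pair had 27.6% and 43.3% in the CFIm68 knockout lines, 25% and 9.09% in the CFIm59 knockout lines and 19.1% in the control. VPS29, of the retromer that recycles cargo from endosomes, had 34.7% and 33.3% in the CFIm68 knockout lines, 67.6% and 61.4% in the CFIm59 knockout lines and 61.0% in the control. RAB11A, a small GTPase of recycling endosomes, had 16.3% and 15.9% in the CFIm68 knockout lines, 39.6% and 39.5% in the CFIm59 knockout lines and 33.5% in the control. RAB11A was among the most deeply read of the 137 genes, with 637 and 353 pair reads in the CFIm68 knockout lines and 382 in the control. Its outermost sites went the other way. There the upstream share was 100% and 98.2% in the CFIm68 knockout lines, 74.1% and 87.4% in the CFIm59 knockout lines and 94.1% in the control. The next site past its pair held 16 and 10 reads in the CFIm68 knockout lines, 40 and 58 in the CFIm59 knockout lines and 78 in the control. Among the rest of the named genes, KIF1B, a kinesin motor whose sites lie 73004 nt apart, had 22.97% and 20.5% in the CFIm68 knockout lines, 47.6% and 50.5% in the CFIm59 knockout lines and 42.1% in the control. The antisense lncRNA MAGI2-AS3 had 6.32% and 4.05% in the CFIm68 knockout lines, 52.8% and 55.8% in the CFIm59 knockout lines and 50.7% in the control. The pair of its outermost sites was above the control in every knockout line. That pair had 16.04% and 17.4% in the CFIm68 knockout lines, 29.2% and 20.7% in the CFIm59 knockout lines and 9.76% in the control. The sources used here do not say whether counting used strand, so reads of a partner gene cannot be told apart.

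The position of the sites was not used by the rule. In 45 of the 137 genes (32.8%) at least 1 site of the pair lay outside the authors' last exon class, against 16.1% of the eligible pairs. An upstream site in an intron and a downstream site in the last exon was the arrangement in 29 genes (21.2%), against 6.88% of eligible pairs. MAF, EXOC8, TIPIN, SAP130, SNHG10 and HPS1 are of this kind, and the median distance between their class's sites was 21301 nt. Pairs within the last exon class made up 92 genes (67.2%), with a median distance of 1084 nt, against 83.9% of eligible pairs. Over all 137 genes the median distance was 3128 nt, against 1197.5 nt in the eligible pairs, and the lower quartiles were alike (302 and 302.25 nt). The upper quartile was 13228 nt for the 137 genes and 3541.5 nt for the eligible pairs. Distances of 10000 nt or more were found in 39 genes (28.5%), against 13.2% of eligible pairs. The mean drop was not ordered by distance: the median difference of the CFIm68 knockout mean from the control was -19.9 points for the 27 genes with sites under 250 nt apart, -29.6 points between 4000 and 10000 nt and -22.7 points at 10000 nt or more. By the reference gene types, 118 of the genes (86.1%) were protein coding and 7 (5.11%) were lncRNAs, against 94.9% and 1.17% of eligible pairs. None of the 137 genes lay on chromosome 5, which held 204 eligible pairs.

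**Figure D3:**
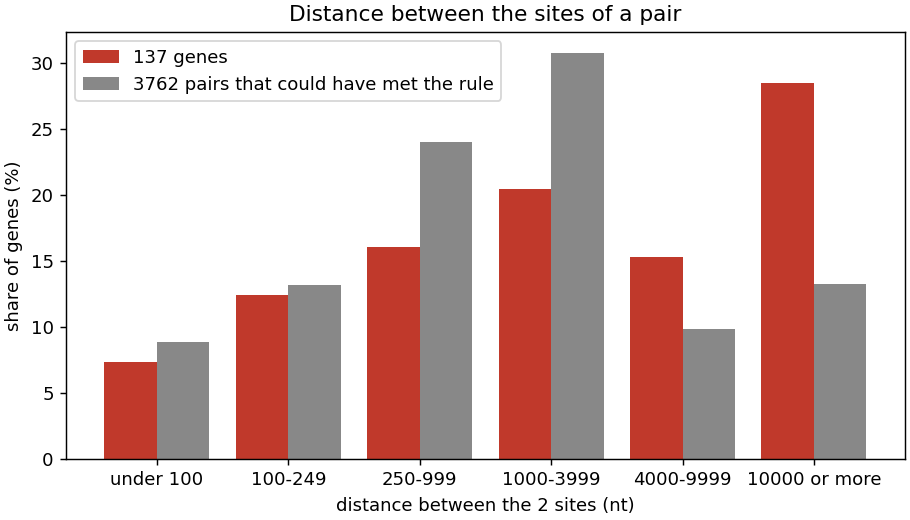
Share of genes (%) by the distance between the sites of the pair (nt), for the 137 genes (red) and the 3762 eligible pairs (grey). Bars start at 0. Distances of 10000 nt or more held 28.5% of the 137 genes and 13.2% of the eligible pairs.

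A lower proximal share can come from fewer reads upstream, more reads downstream, or both. The reads compared here are those that chose the genes, so the counts are a description, with no share over the eligible pairs beside them. A control that happened to read high at the upstream site favours a fall there. Relative to the control and with a pseudocount of 0.5 CPM, the upstream site was 1.5-fold or more lower in the CFIm68 knockout mean in 104 genes, within 1.5-fold in 32 and higher in 1. The downstream site was 1.5-fold or more higher in 73 genes, within 1.5-fold in 56 and lower in 8. The median log2 difference was -1.02 for upstream sites and 0.68 for downstream sites, both on the scale with the pseudocount. The most frequent pattern was a lower upstream site with the downstream site within 1.5-fold (55 genes), followed by opposite moves as in MAF (41 genes) and by a higher downstream site alone (31 genes). WNK1, a kinase that controls ion transport, is of the last kind. Its upstream site held 153 and 88 reads in the CFIm68 knockout lines, 83 and 107 in the CFIm59 knockout lines and 137 in the control. Its downstream site, 237 nt on, held 216 and 157 reads in the CFIm68 knockout lines, 37 in both CFIm59 knockout lines and 47 in the control.

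**Figure D4:**
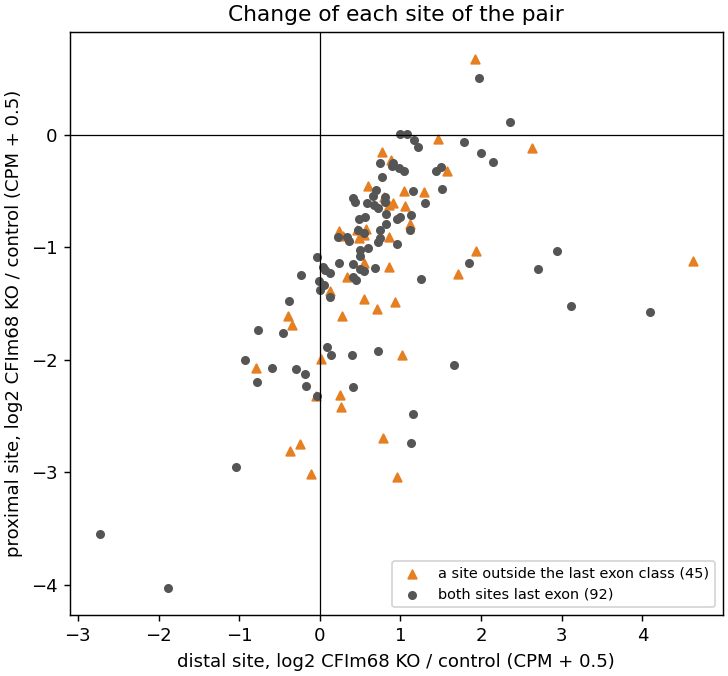
Log2 difference of CPM between the CFIm68 knockout mean and the control (pseudocount 0.5 CPM) at the downstream site (x axis) and the upstream site (y axis) of each of the 137 pairs. Orange triangles are pairs with a site outside the last exon class (45) and grey circles pairs within it (92). Most points lie below 0 on the y axis, and the points lie below the diagonal because the genes were chosen for it.

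The pair does not describe the whole gene. In 88 of the 137 genes (64.2%) 3 or more sites averaged at least 5 reads per library, against 58.4% of eligible pairs. The pair held a median of 74.5% of a gene's reads, against 81.6% for eligible pairs. With the most upstream and most downstream of those sites instead, 123 genes could be measured and 63 of them had another pair. Both CFIm68 knockout lines were below the control in 29 of the 63, above it in 26 and split in 8, so the outer pairs went both ways. The outer pair was 15 or more points below the control in both lines in 9 of the 63 and 15 or more points above it in 10. RIF1 is an example: its main pair consists of the last 2 of 10 sites, and an upstream last exon site outside the pair held 69 and 49 reads in the CFIm68 knockout lines, 3 in both CFIm59 knockout lines and 3 in the control. LRPPRC, which stabilises mitochondrial mRNAs, had a main pair 233 nt apart with 38.0% and 38.8% in the CFIm68 knockout lines, 62.5% and 72.0% in the CFIm59 knockout lines and 67.5% in the control. Its most downstream site held 3 reads in each CFIm68 knockout line, 31 and 76 in the CFIm59 knockout lines and 53 in the control. Reads of LRPPRC therefore gathered at the middle site, which held 48.3% and 44.3% of the gene's reads in the CFIm68 knockout lines, 16.4% and 9.67% in the CFIm59 knockout lines and 17.9% in the control. In WNK1 the most downstream of 5 sites held 11.3% and 11.2% of the gene's reads in the CFIm68 knockout lines, 31.5% and 33.6% in the CFIm59 knockout lines and 28.5% in the control. KPNA5 and MAF had no such loss at their last site.

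**Figure D5:**
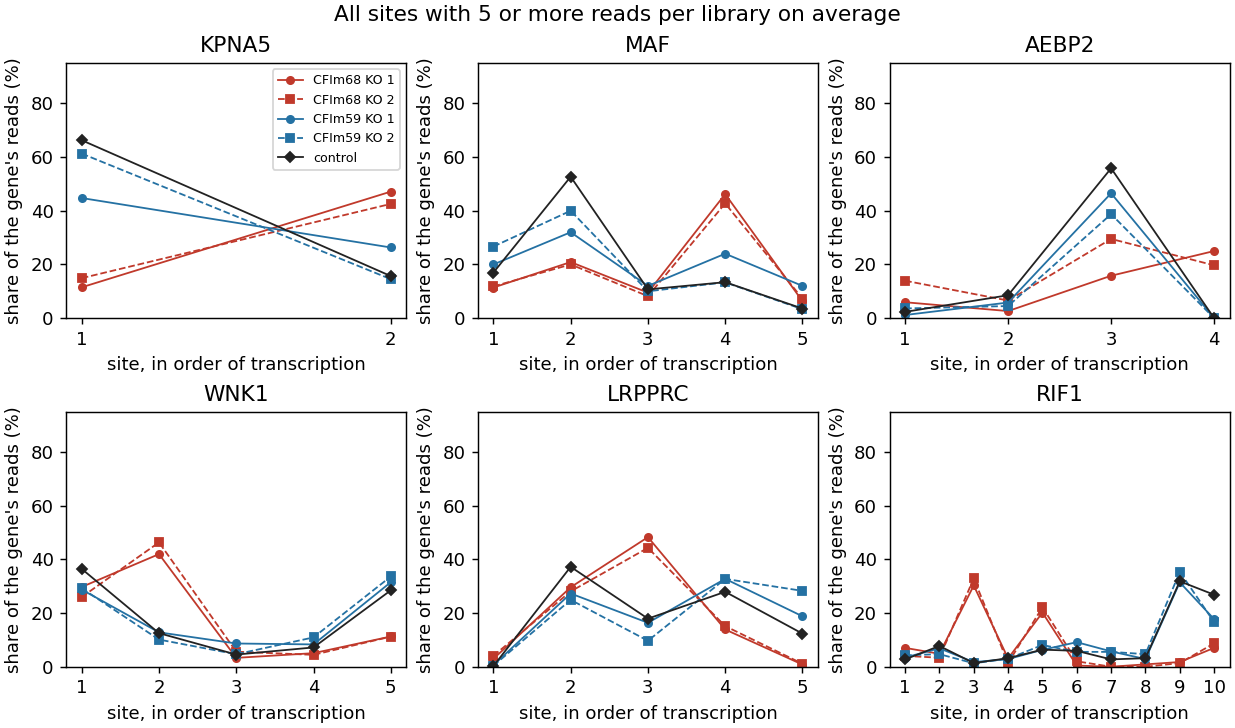
Share of a gene's reads (%) at each site that averaged 5 or more reads per library, in order of transcription, for KPNA5, MAF, AEBP2, WNK1, LRPPRC and RIF1. CFIm68 knockout lines are red, CFIm59 knockout lines blue and the control black. In LRPPRC and WNK1 the CFIm68 knockout lines peak at an inner site, and in RIF1 upstream of the main pair, which is sites 9 and 10.

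The CFIm59 knockout lines were not used to choose the genes, but the control was, and a control that happened to read high favours lower values in both knockouts. The CFIm59 knockout mean was within 10 points of the control in 68 of the 137 genes. Both CFIm59 knockout lines were below the control in 74 genes, at or above it in 42 and on both sides in 21. They were both 15 or more points below it in 26 genes and both 15 or more points above it in 6. The 68 and these counts have no share over the eligible pairs beside them and are not read as a trait of the 137 genes. The median difference of the CFIm59 knockout mean from the control was -5.29 points for the 137 genes. Over the eligible pairs it was -4.49 points, so the medians were near each other. The proximal share fell in 12 genes (8.76%), where 5.06% of all 5869 pairs were called lower, and rose in 1 gene, where 0.988% were called higher. At an unadjusted p under 0.05, 29 of the genes were lower and 10 higher. Counts at an unadjusted p, here and below, have no share over all pairs or genes beside them and are not read as a trait of the 137 genes. The median log2 change of the proximal to distal ratio was -0.42 for the 137 genes and -0.34 for all pairs. ZNF721, a zinc finger protein, had the lowest adjusted p of the 8 named falls. Its share was 40.2% and 36.8% in the CFIm68 knockout lines, 9.38% and 3.64% in the CFIm59 knockout lines and 56.8% in the control (CFIm59 knockout against control: log2 change -4.36, SE 0.68, adjusted p = 3.31e-05).

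PLAA, a ubiquitin-binding protein, also used the downstream site more without CFIm59, with 34.7% and 45.5% in the CFIm68 knockout lines, 23.5% and 25% in the CFIm59 knockout lines and 72.4% in the control (log2 change -3.01, SE 0.55, adjusted p = 0.000360). SNHG10, a small nucleolar RNA host gene, had 8.22% and 7.14% in the CFIm68 knockout lines, 0% and 8.82% in the CFIm59 knockout lines and 36.4% in the control (log2 change -3.42, SE 0.68, adjusted p = 0.000988). CCDC8, of the complex mutated in a growth disorder named 3M, had 34.04% and 26.4% in the CFIm68 knockout lines, 16.7% and 17.9% in the CFIm59 knockout lines and 59.02% in the control (log2 change -2.75, SE 0.57, adjusted p = 0.00161). In PLAA, CCDC8 and ZNF721 both CFIm59 knockout lines lay below both CFIm68 knockout lines. Further falls were those of ABTB2 (log2 change -4.16, adjusted p = 0.00429), TIPIN (-1.68, adjusted p = 0.0139) and TM2D3 (-1.83, adjusted p = 0.0371). BCRP2, a BCR pseudogene whose reads can be shared with near-identical copies, passed on only 4 and 9 CFIm59 knockout reads. The call of TM2D3 was lost without either CFIm59 knockout line, that of TIPIN without line 1 and that of BCRP2 without line 2, and without line 2 the count of lower genes was 7. The single rise was in ATP2C1, the calcium and manganese pump of the Golgi, with 40.6% and 39.1% in the CFIm68 knockout lines, 84.1% and 89.4% in the CFIm59 knockout lines and 58.97% in the control (log2 change 2.17, SE 0.56, adjusted p = 0.0121). That call was lost without CFIm59 knockout line 2. DESeq2, which gave an adjusted p to 66 of the 137 genes, called 2 lower and 0 higher (20 at an unadjusted p under 0.05). With last exon sites alone the log2 change of SNHG10 was 0.14.

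Set against the CFIm59 knockout, the CFIm68 knockout had a lower proximal share in 76 of the 137 genes (55.5%), where 6.08% of all pairs were called lower. These are the libraries the rule selected to be low, so the count is no independent support. Both CFIm68 knockout lines were below both CFIm59 knockout lines in 107 genes (78.1%), against 16.6% of the eligible pairs, and above both in 9, against 56.8% of the eligible pairs. The proximal share was higher than in the CFIm59 knockout in 3 genes (2.19%), where 40.5% of all pairs were called higher. They were ZNF721 (log2 change 3.30, SE 0.63, adjusted p = 1.55e-05), ABTB2 (2.71, SE 0.86, adjusted p = 0.00747) and POLA1 (1.33, SE 0.55, adjusted p = 0.0417). POLA1, the catalytic subunit of DNA polymerase alpha, has a site listed under another gene too and is named because the count is small. The call of ABTB2 was lost without CFIm68 knockout line 1.

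Reads summed over all sites of a gene are another measure than the share, but they are not free of the rule. They include the reads of the pair, a median of 74.5% of a gene's reads. The rule also asked for 30 or more pair reads in the control and set no such floor for a knockout library. That favours genes that read high in the control, so the falls against the control given below are no independent result. In these bulk samples fewer cells that express a gene and less RNA per cell cannot be told apart. Between CFIm68 knockout and control, 5 of the 137 genes fell (3.65%), where 2.03% of 14636 genes were called lower, and 2 rose, where 1.59% were called higher. The median log2 change was -0.11 for the 137 genes and 0.02 for all genes. RPUSD4 had 11.4 and 14.5 CPM in the CFIm68 knockout lines, 20.3 and 20.6 CPM in the CFIm59 knockout lines and 33.7 CPM in the control (CFIm68 knockout against control: log2 change -1.38, SE 0.33, adjusted p = 0.00841). C12orf23 had 38.3 and 47.6 CPM in the CFIm68 knockout lines, 47.7 and 68.3 CPM in the CFIm59 knockout lines and 91.2 CPM in the control (log2 change -1.09, SE 0.26, adjusted p = 0.00931), and both of its sites were lower. In both genes each CFIm68 knockout line was below every other library. PDK1 (log2 change -1.09, adjusted p = 0.0292), ZNF480 (-1.12, adjusted p = 0.0404) and TIPIN (-0.83, adjusted p = 0.0419) completed the falls. The rises were LTBP3, which binds latent TGF-beta (log2 change 1.15, adjusted p = 0.0224), and HIST1H1C, a linker histone (1.23, adjusted p = 0.0456). Every one of these 7 calls was lost without 1 of the CFIm68 knockout lines: PDK1 and TIPIN without line 2, ZNF480 without either, and the others without line 1. DESeq2 gave an adjusted p to 8 of the 137 genes only and called 0 of them, with 13 of the 137 at an unadjusted p under 0.05.

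Against the control, 14 genes fell (10.2%) and 6 rose (4.38%) in total reads in CFIm59 knockout cells, where 6.87% and 6.98% of all genes were called lower and higher. PDK1 had 37.2 and 17.2 CPM in the CFIm68 knockout lines, 17.3 and 16.5 CPM in the CFIm59 knockout lines and 59.1 CPM in the control (CFIm59 knockout against control: log2 change -1.81, SE 0.32, adjusted p = 6.84e-05). TMA7, a small protein linked to translation, had 197 and 198 CPM in the CFIm68 knockout lines, 140 CPM in both CFIm59 knockout lines and 323 CPM in the control (log2 change -1.20, SE 0.23, adjusted p = 0.000207). SAMD11 had the largest rise of the named genes, with 32.7 and 32.6 CPM in the CFIm68 knockout lines, 62.6 and 60.1 CPM in the CFIm59 knockout lines and 22.8 CPM in the control (log2 change 1.43, SE 0.30, adjusted p = 0.000706). Without CFIm59 knockout line 1, 8 genes fell and 3 rose. Between the knockouts, 18 genes were higher in CFIm68 knockout cells (13.1%) and 16 lower (11.7%), where 9.46% and 10.3% of all genes were called. Among the largest of these were QSER1, MAF and ZNF480. QSER1 had 42.7 and 47.6 CPM in the CFIm68 knockout lines, 11.3 and 11.1 CPM in the CFIm59 knockout lines and 23.2 CPM in the control (CFIm68 against CFIm59 knockout: log2 change 2.00, SE 0.28, adjusted p = 3.75e-07). MAF was higher by 1.93 (SE 0.27, adjusted p = 2.93e-07). ZNF480 had 13.1 and 11.9 CPM in the CFIm68 knockout lines, 50.7 and 53.9 CPM in the CFIm59 knockout lines and 27.3 CPM in the control (log2 change -2.06, SE 0.27, adjusted p = 5.71e-08). The counts between the knockouts were 9 higher without either CFIm59 knockout line and 8 lower without line 2.

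The genes were spread over many functions. The gene lists counted below do not hold every gene of a kind: PHC3, SAP130, WNK1, RPUSD4 and LRPPRC, described above, are in none of the counts. Of 109 eligible pairs of exocyst, RAB and vesicle traffic genes, 6 were among the 137 genes. The 6 include GOLGA6L4 and GOLGA6L9, whose reads are uncertain as said above. Of the list's 172 pairs, 45 moved the opposite way by 15 or more points in both CFIm68 knockout lines. Of 74 eligible zinc finger genes 8 were among them, 1 of them the antisense ZSCAN16-AS1, and 18 of 138 moved the opposite way. Of 64 eligible polycomb and chromatin regulators 5 were among them (PHF10, AEBP2, EP400NL, ASH1L and PHF20L1), and 19 of 90 moved the opposite way. PHF10, a subunit of the BAF chromatin remodelling complex, had 13.2% and 20.2% in the CFIm68 knockout lines, 51.5% and 54.2% in the CFIm59 knockout lines and 40% in the control. The lists for DNA replication and repair (44 eligible), metabolic enzymes (65), the ubiquitin pathway (134) and RNA-binding and splicing proteins (106) each gave 3 genes. Kinases and signalling genes gave 2 of 131, ribosomal and translation genes 1 of 103 and mitochondrial genes 1 of 55. The list for mitosis, centrosome and cilium gave 2 of 83, the kinesin gene KIF1B and the Mediator kinase gene CDK19. Solute carriers and channels gave 4 of 123, including SLC11A2, the iron transporter of endosomes and gut, and ATP2C1. The leucine zipper factors gave MAF alone of 14 eligible pairs, and 7 of the list's 21 pairs moved the opposite way. None of the 13 eligible pairs of cleavage and polyadenylation factors was among the 137 genes. The counts among the 137 genes can be read against 137 in 3762 eligible pairs. The opposite moves are given over all measured pairs of a list. They can be read against the 1191 of 5869 pairs that moved that way, each with 30 or more control reads.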

How the data were processed

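Poly(A) site libraries were made from total RNA that was fragmented, primed with oligo(dT), circularised and sequenced from the 3′ end, per the labels' protocols. The deposited table gives raw counts of reads at each poly(A) site, with 1 column per library and 0 columns of other samples. Per the submitters' processing notes, the build was hg19 and TopHat2 2.1.0 and deepTools 2.4 were used, for steps the notes do not name. The sources used here do not say how sites were called, how priming inside A-rich stretches was treated, whether strand was used or whether positions start at 0 or 1. Each site's class and position is as deposited. The table held 290072 entries for 31173 genes and 272248 distinct sites, and repeated listings of a site held 0 reads.

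Pairs were kept with a mean of 20 or more reads per library over both sites and 5 or more at each, which left 5869. Their counts were fitted in edgeR 4.0.16 (R 4.3.3) by the quasi-likelihood test, with a term per library, a site-by-group term and the library's total reads as library size of both sites. A positive log2 change is towards the proximal site. Counts summed per gene were scaled by TMM, filtered with filterByExpr to 14636 genes and fitted the same way. CPM, of genes and of sites, is after TMM. The tests were 2-sided, with Benjamini-Hochberg adjustment over all pairs or genes and a threshold of 0.05. All 5 libraries shared 1 spread per gene, so the lone control was assumed to vary like the knockout lines, and p-values measure the spread between lines. Intervals are 95% Wilson intervals. The scripts were tested on simulated data. DESeq2 1.42.0, RLE scaling, other filters, other site pairs, other thresholds and leaving out each knockout line were tried.

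Named were MAF, the 20 largest differences with 60 or more control reads, the 3 genes nearest to the limit on each side, up to 8 called genes each way per comparison and up to 6 per list. Clone-style symbols and genes with shared sites were counted and named only where a small count turned on them. The genes, the lists and this rule were chosen with earlier results of these data known. Gene types came from a reference table matched by symbol. Some genes that the rule selects are not reported here.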

Additional observations from a re-analysis of the deposited data

Results flagged for a closer look

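ATP2C1 differed between the knockouts in direction: its proximal share was 40.6% and 39.1% in the CFIm68 knockout lines, 84.1% and 89.4% in the CFIm59 knockout lines and 58.97% in the control. The test of the difference between the knockouts gave a log2 change of -3.27, the CFIm68 knockout libraries being ones that chose the gene.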

How the results depend on the processing

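The number of genes that met the rule was 260 at 10 points, 69 at 20 points, 79 with 60 control reads, 29 with pair minimums of 100 and 20 reads and 90 with the most upstream and most downstream sites. Of the calls, site use in CFIm59 knockout against control (12 lower, 1 higher) gave 2 and 0 with DESeq2 (66 genes with an adjusted p), 5 lower with the higher pair minimums, 0 higher with the outermost sites, and 7 and 2 with last exon sites alone. Leaving out a line gave 7 to 15 lower and 1 to 2 higher. Site use between the knockouts (76 lower, 3 higher) gave 1 higher with DESeq2, 21 and 0 with the higher minimums, 36 and 27 with the outermost sites, 8 higher with last exon sites alone, and 58 to 65 lower and 2 to 3 higher without a line. Expression in CFIm68 knockout against control (5 lower, 2 higher) gave 0 and 0 with DESeq2 (8 genes with an adjusted p), and 3 to 6 and 1 to 3 without a line. Expression in CFIm59 knockout against control (14 lower, 6 higher) gave 5 and 2 with DESeq2, 2 higher with genes of 1 or more reads kept, and 8 to 16 and 3 to 7 without a line. Between the knockouts (16 lower, 18 higher) it gave 5 and 4 with DESeq2, and 8 to 12 and 9 to 16 without a line. The higher pair minimums left 29 of the 137 genes. For the rest the cause was not tested.

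Line numbers did not pair the samples: the differences of line 1 minus line 2 correlated between the knockouts at 0.00700 over 10970 genes and 0.0488 over 2854 pairs. With the replicate block, in the knockout libraries alone, 77 pairs were lower and 2 higher, and 16 genes were lower and 18 higher; without the block, an alternative chosen after seeing the data, these were 76, 3, 14 and 17. Named genes whose log2 change took the opposite sign were SNHG10 in CFIm59 knockout against control (0.14 with last exon sites alone), AEBP2 between the knockouts (2.79 with last exon sites alone) and PHC3 between the knockouts (1.57 with the outermost sites). Of the other alternatives for named genes, 353 kept direction and call and 68 kept the direction without the call. Depth limits the genes with few pair reads, whose CFIm59 knockout values rest on as few as 3 reads.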

Other observations

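Both sites of 8 genes were 1.5-fold or more lower in CFIm68 knockout cells than in the control, among them POU3F2, a POU-domain transcription factor of neurons, and ASH1L, a histone methyltransferase. POU3F2 had 11.4 and 18.1 CPM in the CFIm68 knockout lines, 38.2 and 51.0 CPM in the CFIm59 knockout lines and 26.5 CPM in the control, and was lower in CFIm68 than in CFIm59 knockout cells (log2 change -1.63, SE 0.28, adjusted p = 1.39e-05). TRMT13, a tRNA methyltransferase, differed in the same direction, with 23.1 and 11.02 CPM in the CFIm68 knockout lines, 39.95 and 51.0 CPM in the CFIm59 knockout lines and 32.2 CPM in the control (log2 change -1.39, SE 0.28, adjusted p = 0.000164). FH, the fumarase of the citric acid cycle, had 14.5 and 24.7 CPM in the CFIm68 knockout lines, 4.77 and 9.87 CPM in the CFIm59 knockout lines and 13.8 CPM in the control (log2 change 1.33, SE 0.37, adjusted p = 0.00670), a call that was lost without CFIm59 knockout line 1 or CFIm68 knockout line 2.

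CDK19, a kinase of the Mediator complex whose sites lie 203182 nt apart, had proximal shares of 10.9% and 18.2% in the CFIm68 knockout lines, 28.1% and 27.3% in the CFIm59 knockout lines and 50% in the control. ASH1L had 20% and 33.3% in the CFIm68 knockout lines, 17.4% and 21.4% in the CFIm59 knockout lines and 50% in the control, so there the knockouts overlapped.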
